A study of Homo sapiens with 12 samples.

Results

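The genes of cellular iron uptake, storage and export were followed in HK-2 cells, a line of human kidney proximal tubule epithelium immortalised with papillomavirus genes, exposed to a low dose of a compound labelled Nnm. The members were the probe sets annotated to 10 gene symbols: SLC40A1, TFRC, SLC11A2, FTH1, FTL, ACO1, IREB2, SLC39A14, STEAP3 and NCOA4. This gave 22 of the 54675 probe sets on the array, for 8 of the 10 genes, and 17 of the 22 were bright enough to test. FTH1, the heavy ferritin chain, and IREB2, an iron regulatory protein, had no probe set under those symbols in the annotation used and were not analysed here. The study is part of a survey of kidney toxicants, and it held 12 arrays in 4 groups of 3 labelled as biological replicates. The groups were cells with vehicle for 24 h, cells with low dose Nnm for 24 h, cells with vehicle for 48 h and cells with low dose Nnm for 48 h. All groups shared the cell line, a medium with 5 µg/ml human transferrin, insulin, hydrocortisone, epidermal growth factor and selenite, and a start of treatment near 90% confluency. The full name of Nnm, the amount behind "low dose" and the vehicle are not given in the sources used here. The number of arrays limits the precision.

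Cells take up transferrin-bound iron through the transferrin receptor, reduce it in endosomes with a STEAP enzyme and move it into the cytosol through a divalent metal transporter. Iron that is not used is stored inside ferritin shells, released again when NCOA4 carries ferritin to lysosomes, or exported by ferroportin, the product of SLC40A1. Iron regulatory proteins bind hairpins called iron-responsive elements: in ferritin and ferroportin mRNA these lie before the coding sequence and block translation, and in transferrin receptor mRNA they lie after it and protect the message from decay. An mRNA level therefore does not show the translational arm of this control. In the kidney, the proximal tubule takes back filtered transferrin and other iron carriers from the urine.

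The sequences just before 3 of the genes are shown because SLC40A1 changed most, FTL codes for a storage subunit and TFRC for the receptor that brings iron in. Each run is 250 bases that end at the base before the transcript start, 5′ to 3′ on the gene's own strand, from RefSeq on GRCh38.p14. Capitals mark matches, on either strand, to ACGTG (the core of the hypoxia response element) and TGCNCNC (a loose form of the core of the metal response element). No match to TGACNNNGC (the antioxidant response element) was found in these windows.
SLC40A1, chr2:189580787-189581036, minus strand: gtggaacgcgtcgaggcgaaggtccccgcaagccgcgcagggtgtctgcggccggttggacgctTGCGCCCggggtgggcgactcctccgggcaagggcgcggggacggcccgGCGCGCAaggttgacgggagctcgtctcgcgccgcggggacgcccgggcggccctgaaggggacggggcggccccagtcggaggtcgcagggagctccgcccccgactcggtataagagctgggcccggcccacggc
FTL, chr19:48965059-48965308, plus strand: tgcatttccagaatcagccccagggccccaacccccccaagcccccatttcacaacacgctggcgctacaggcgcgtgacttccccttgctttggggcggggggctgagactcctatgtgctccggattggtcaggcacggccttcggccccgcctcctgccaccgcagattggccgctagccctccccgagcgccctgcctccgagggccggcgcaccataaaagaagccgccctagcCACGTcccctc
TFRC, chr3:196082091-196082340, minus strand: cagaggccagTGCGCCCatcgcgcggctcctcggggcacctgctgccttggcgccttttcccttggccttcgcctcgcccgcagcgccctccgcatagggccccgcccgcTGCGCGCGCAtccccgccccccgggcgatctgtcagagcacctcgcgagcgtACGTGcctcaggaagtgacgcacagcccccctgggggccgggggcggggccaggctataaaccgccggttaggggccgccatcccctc
The SLC40A1 window held TGCNCNC at 186 to 180 bases before the start and, on the other strand, at 137 to 131 bases before it. In the FTL window ACGTG lay at 11 to 7 bases before the start, on the other strand. The TFRC window held ACGTG at 88 to 84 bases before the start and 3 matches to TGCNCNC, of which a pair overlapped each other. Among all 35116 windows of this length in the table, 18.5% held ACGTG, 49.1% TGCNCNC and 10.9% TGACNNNGC. Of the 11 windows of 7 members, 2, 4 and 0 did. SLC39A14 had no entry. A match is a description of the letters and not a site.

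The iron-responsive element of FTL begins inside its transcript, and the part that falls in the first 50 bases is shown for the loop that iron regulatory proteins bind. Capitals mark the loop, CAGTGN, whose first base is base 39 of the transcript.
FTL, chr19:48965336-48965358, plus strand: tcttgcttcaaCAGTGTttggac
CAGTGN was present in the first 50 transcribed bases of 6.36% of all 35116 windows and of 2 of the 11 member windows, 1 of them of NCOA4.

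Before the results, the arrays themselves were compared. The Nnm arrays of replicate 2 lay between the control arrays and the other Nnm arrays on the first principal component at both times (-3.28 and -1.55, against 18.6 to 34.4 for controls and -43.2 to -31.2 for Nnm replicates 1 and 3). On replicate 2 of all 4 groups the ACTB 5′ minus 3′ difference, a sign of RNA quality, was also lower (-1.17 to -1.09, against -0.86 to -0.74). Of the proximal tubule markers with a probe set, 8 of 11 were below the brightness filter in all groups, among them AQP1, LRP2 and CUBN, with group means of 2.09 to 3.04 on the log2 scale. PAX8, CDH6 and DPP4 of that list and all 5 general epithelial markers were above it. Of these tubule markers DPP4 rose with Nnm by 0.77 at 24 h and by 1.19 at 48 h (limma adjusted p = 0.0220 and 0.00659), PAX8 rose by 0.65 at 24 h (0.0398) and CDH6 by 1.38 at 48 h (0.0141). No general epithelial marker passed at either time, and over both times KRT8 fell by 0.63 (limma adjusted p = 0.0394). Blocked by replicate number over all arrays, KRT8 fell at 24 h and 48 h (adjusted p = 0.00549 and 0.00377) and KRT18 at 24 h (0.00842). With that block PAX8 also rose at 48 h, by 0.61 (0.00510). Markers of leukocytes (7 of 7) and erythroid cells (4 of 4) were below the filter, at group means of 2.11 to 2.95 and 2.24 to 3.94. Of the markers of other types that could be tested, SERPINA1 (hepatocyte list, 2 tested) rose by 0.62 and COL1A1 (fibroblast list, 3 tested) fell by 0.53 at 48 h. None passed at 24 h (limma), though SERPINA1 did with the block (adjusted p = 0.0184). The other fibroblast markers tested, LUM and DCN, were 0.47 and 0.22 higher at 48 h and did not pass (limma adjusted p = 0.0694 and 0.506). With the block LUM passed at 48 h (adjusted p = 0.0451) and DCN did not (0.347). Both were bright, at group means of 9.85 to 10.31 for LUM and 11.81 to 12.11 for DCN. PECAM1, the 1 endothelial marker tested, was 0.46 higher at 48 h (limma adjusted p = 0.0652) and passed with the block (0.0275). It was dim, at group means of 4.05 to 4.50. The part of these markers in the member values was not tested. In a bulk culture, a change in RNA per cell cannot be told apart from a change in the make-up of the culture.

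Across the members, the iron exporter SLC40A1 rose with Nnm at both times. SLC11A2, which carries iron into the cytosol, rose at 24 h, and STEAP3, the endosomal iron reductase, fell at 24 h. These 24 h calls of SLC11A2 and STEAP3 passed in 3 and 9 of the 12 fits that left out 1 array. By the planned test (limma, adjusted p under 0.05 over all 10907 genes tested), 2 of the 8 members rose and 1 fell at 24 h, where 19.4% of all genes tested were called (10.6% rose and 8.85% fell). At 48 h 1 rose and 0 fell, where 13.8% of all genes were called (8.45% rose and 5.34% fell). Blocked by replicate number over all arrays, FTL rose too at 24 h, and at 48 h FTL rose and SLC39A14 fell too. That fit called 38.8% of all genes at 24 h and 32.2% at 48 h. Over the mean of both times, 3 rose (SLC40A1, SLC11A2 and FTL) and 2 fell (SLC39A14 and STEAP3), where 37.3% of all genes were called (20.4% rose and 16.9% fell). Of these, SLC11A2 and SLC39A14 passed in 4 and 1 of the 12 fits that left out 1 array. Between control cells of 48 h and of 24 h, 0 of 8 passed by limma, where 0.128% of all genes were called (0.0825% rose and 0.0458% fell). An unadjusted p under 0.05 was found there for 1 of 8 members and for 1711 of 10907 genes. With 8 members each call moves the share by much, and whether 3, 1 and 5 calls differ from these backgrounds was not tested. The median member change was 0.15 on the log2 scale at 24 h, against 0.01 over all genes, and -0.07 at 48 h, against 0.02. The 3 Nnm values lay apart from the 3 control values in 5 of 8 members at 24 h (4 above, 1 below) and in 4 of 8 at 48 h (2 above, 2 below), where 39.8% and 36.1% of all genes did. No member changed differently at 48 h than at 24 h: 0 of 8 passed, and 0 of 8 had an unadjusted p under 0.05, where 0% of all genes were called and 698 of 10907 had an unadjusted p under 0.05 (limma).

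**Figure D1:**
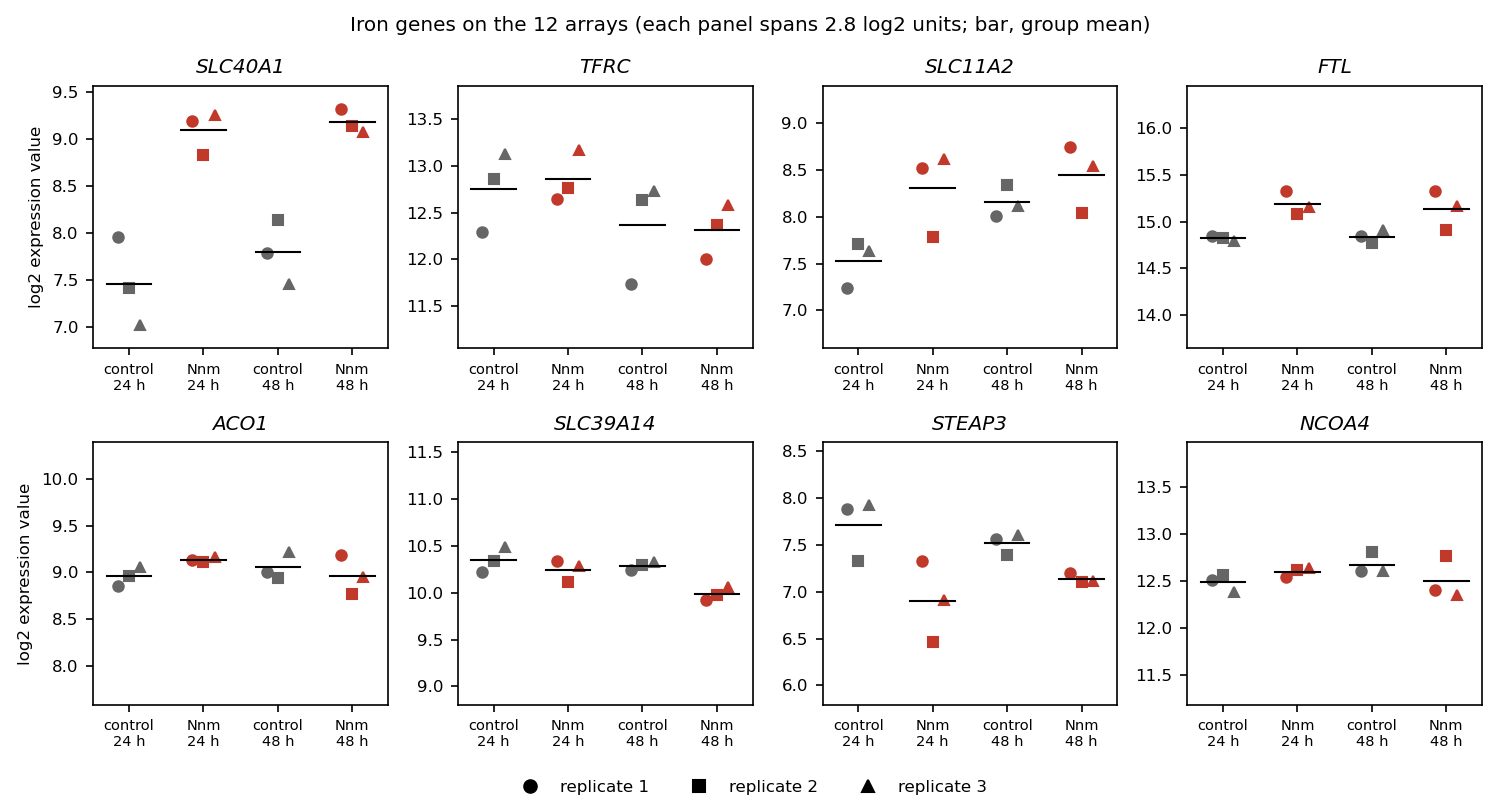
Log2 expression value of the brightest probe set of each of the 8 member genes (y axis) on each of the 12 arrays, by group on the x axis; points are arrays and bars are group means. SLC40A1 is the member whose Nnm arrays (8.83 to 9.33) all lie above every control array (7.01 to 8.14) by the widest gap, and TFRC overlaps at both times.

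SLC40A1 codes for ferroportin, the iron exporter of animal cells. Its probe set 223044_at read 7.95, 7.41 and 7.01 (log2 value, replicates 1, 2 and 3) in control cells at 24 h and 9.19, 8.83 and 9.26 with Nnm. The control arrays of 48 h read 7.79, 8.14 and 7.45 and the Nnm arrays 9.33, 9.15 and 9.07. Every Nnm array lay above every control array of either time, and the array of Nnm replicate 2 stood with the other Nnm arrays at both times. The group means were 7.46 ± 0.47 and 9.09 ± 0.23 at 24 h and 7.79 ± 0.34 and 9.18 ± 0.13 at 48 h (SD, n = 3). The order of the groups was therefore control 24 h, control 48 h, Nnm 24 h and Nnm 48 h, and within each condition the times overlapped. The rise at 24 h was 1.64 (SE 0.24, limma adjusted p = 0.00563), which is 3.11-fold with a 95% confidence interval of 2.16 to 4.48. At 48 h it was 1.39 (SE 0.24, limma adjusted p = 0.00868), or 2.62-fold with an interval of 1.82 to 3.78. The change at 48 h minus that at 24 h was -0.25, with an interval of -0.99 to 0.50, so a difference between the times was not shown and one of either sign is not bounded tightly. A second probe set of the gene, 233123_at, was below the filter.

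Storage was read through FTL, the light ferritin chain, which helps to lay down the iron core, and NCOA4, the receptor that delivers ferritin to lysosomes. FTL probe set 212788_x_at read 14.84, 14.82 and 14.80 in control cells and 15.33, 15.08 and 15.16 with Nnm at 24 h. At 48 h it read 14.85, 14.77 and 14.91 in controls and 15.32, 14.91 and 15.17 with Nnm. The Nnm arrays lay above the controls at 24 h, and at 48 h they did so as well, although Nnm replicate 2 and the highest control were equal to the second decimal. FTL differed by 0.37 at 24 h (SE 0.12, 1.29-fold) and by 0.29 at 48 h (1.23-fold), with limma adjusted p = 0.0519 and 0.117. Blocked by replicate number over all arrays, both passed, at adjusted p = 0.0158 and 0.0410, and with a block within each time the values were 0.0361 and 0.0740, so the 48 h call rests on the first kind of block. In that fit 38.8% of all genes were called at 24 h and 32.2% at 48 h. Over both times FTL rose by 0.33 (limma adjusted p = 0.0118), and it passed in all 12 fits that left out 1 array. These values lie near the top of the scale, where the brightest probe set of any gene read 15.87 to 16.13, and whether that compressed the difference was not tested.

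The other FTL probe set, 213187_x_at, read 14.60, 14.47 and 14.54 in controls and 15.15, 14.83 and 15.14 with Nnm at 24 h. Its 48 h values were 14.47, 14.45 and 14.61 against 15.13, 14.56 and 14.99. It overlapped its controls only through Nnm replicate 2 at 48 h. In the fit over all 19832 bright probe sets, where 14.8% were called at 24 h and 10.2% at 48 h, it rose by 0.50 at 24 h (limma adjusted p = 0.0496) and was 0.38 higher at 48 h (adjusted p = 0.125). With the block the adjusted p values were 0.0110 and 0.0324. The _x_at ending marks probes that can also bind related transcripts, and FTL has processed pseudogenes, so the 2 probe sets may share signal from these.

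NCOA4 stayed close to its control level. Probe set 210774_s_at read 12.51, 12.57 and 12.38 in control cells and 12.54, 12.62 and 12.64 with Nnm at 24 h, and 12.60, 12.81 and 12.61 against 12.40, 12.76 and 12.35 at 48 h. The groups overlapped at both times. The difference was 0.11 at 24 h (95% interval -0.16 to 0.39, limma adjusted p = 0.540) and -0.17 at 48 h (-0.44 to 0.11, adjusted p = 0.380).

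TFRC, the transferrin receptor, is the entry point for iron bound to the transferrin in this medium. Its brightest probe set, 208691_at, read 12.29, 12.86 and 13.12 in controls and 12.64, 12.77 and 13.17 with Nnm at 24 h. At 48 h it read 11.74, 12.64 and 12.73 in controls and 12.0006, 12.37 and 12.58 with Nnm. Replicate 1 was the lowest array of every group, and the Nnm and control values overlapped at both times. The difference was 0.10 at 24 h and -0.05 at 48 h (limma adjusted p = 0.828 and 0.929). The 95% intervals were -0.54 to 0.75 and -0.69 to 0.59. Blocked by replicate number, which takes up the low level of replicate 1, they narrowed to -0.19 to 0.40 and -0.35 to 0.25. A 2-fold change lay outside all of these intervals, which are those of 208691_at. On another TFRC probe set, 237215_s_at, the unblocked limma intervals were -1.48 to 1.34 and -1.40 to 1.41, which include a 2-fold change. In control cells TFRC was 0.39 lower at 48 h than at 24 h, which did not pass (limma adjusted p = 0.560).

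Replicate 1 was also the lowest array of each group on 207332_s_at and 237215_s_at. On 207332_s_at the controls read 11.37, 12.21 and 12.45 and the Nnm arrays 11.94, 12.04 and 12.23 at 24 h, and on 237215_s_at they read 8.71, 9.82 and 10.30 against 8.85, 9.60 and 10.16. At 48 h the values on 207332_s_at were 10.81, 11.74 and 11.94 against 11.10, 11.51 and 11.75, and on 237215_s_at 7.43, 9.31 and 9.85 against 8.11, 8.98 and 9.52. The conditions overlapped on both probe sets. The last bright probe set, 240686_x_at, lay between 5.36 and 5.95 on all arrays, and 237214_at was below the filter.

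SLC11A2 codes for the divalent metal transporter DMT1, which moves reduced iron out of the endosome. Probe set 203124_s_at read 7.24, 7.71 and 7.63 in controls and 8.52, 7.79 and 8.62 with Nnm at 24 h. The 48 h controls read 8.0045, 8.34 and 8.12 and the Nnm arrays 8.75, 8.05 and 8.55. Replicates 1 and 3 were high with Nnm at both times, whereas replicate 2 stood 0.08 above its own control at 24 h and 0.30 below it at 48 h. SLC11A2 rose by 0.78 at 24 h (SE 0.24, 1.72-fold, limma adjusted p = 0.0464). At 48 h the difference was 0.29 (95% interval -0.25 to 0.83, adjusted p = 0.445), and the difference between the times did not pass (-0.49, interval -1.25 to 0.27). Over both times SLC11A2 rose by 0.54 (limma adjusted p = 0.0317), which passed in 4 of the 12 fits that left out 1 array. In control cells SLC11A2 stood 0.63 higher at 48 h than at 24 h (SE 0.24, limma adjusted p = 0.257), and it was the only member with an unadjusted p under 0.05 in that comparison. The 24 h call passed in 3 of the 12 fits that left out 1 array (without Nnm 24 h replicate 2, Nnm 48 h replicate 1 or Nnm 48 h replicate 2), and its adjusted p reached 0.157 in the others. It was also lost with no brightness filter (0.110), with the mean of the probe sets (a difference of 0.25, 0.261), with the 24 h groups alone (0.0924) and with a block within each time (0.0645).

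The probe sets of SLC11A2 did not all differ in 1 direction. On 203123_s_at the controls read 7.49, 7.88 and 7.77 and the Nnm arrays 8.24, 7.60 and 8.51 at 24 h, a difference of 0.40 (limma adjusted p = 0.254 over probe sets). On 203125_x_at and 210047_at the 24 h differences were -0.08 and -0.09, and the 48 h differences -0.25 and -0.37. In the probe-set fit 203124_s_at itself had an adjusted p of 0.0552 at 24 h, and 0.0360 with the block. The values of 210047_at lay between 3.71 and 4.64 on all arrays, close to the brightness filter of 4, so this probe set bears little on the gene. SLC11A2 is known to make several transcripts that differ at both ends, and the annotation used here does not say which of them each probe set reads.

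**Figure D2:**
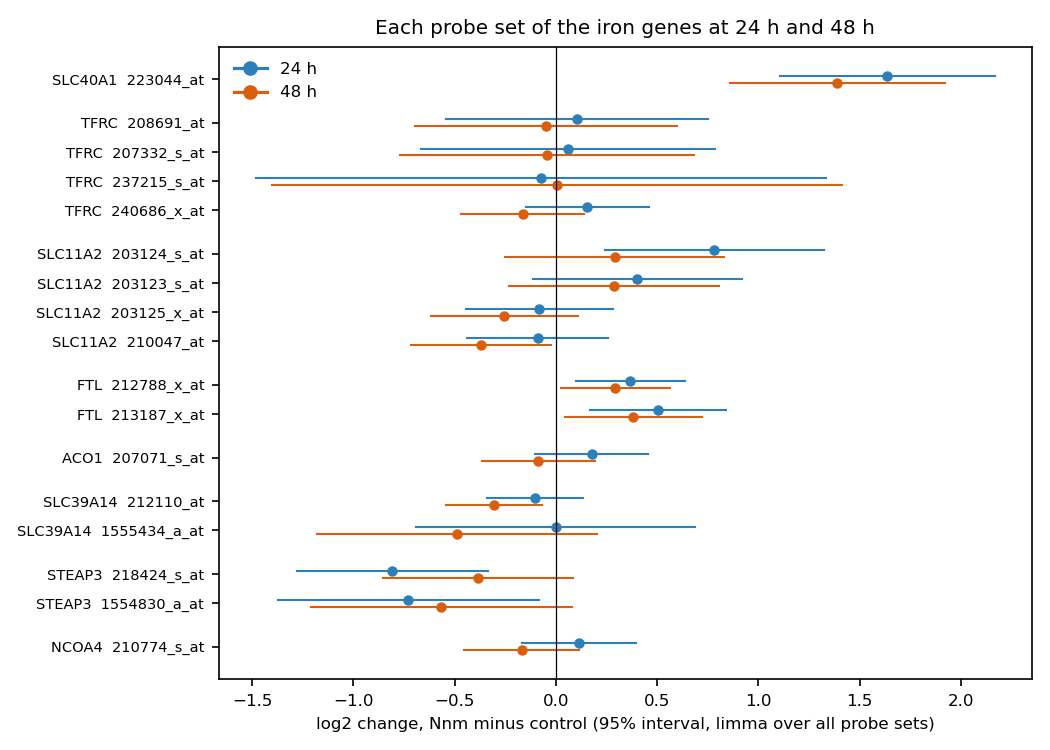
Log2 change with Nnm (x axis) at 24 h and 48 h for each of the 17 bright member probe sets (y axis), with limma 95% confidence intervals. The FTL pair lies on 1 side of 0, while the 4 SLC11A2 probe sets lie on both sides, from 0.78 (203124_s_at) to -0.09 (210047_at) at 24 h.

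STEAP3, the ferrireductase of the transferrin endosome, was lower with Nnm. Its probe set 218424_s_at read 7.88, 7.33 and 7.92 in controls and 7.33, 6.47 and 6.92 with Nnm at 24 h, and 7.57, 7.39 and 7.60 against 7.20, 7.10 and 7.11 at 48 h. At 24 h Nnm replicate 1 equalled the lowest control to the second decimal, and at 48 h all Nnm arrays lay below all controls. The gene fell by 0.81 at 24 h (SE 0.21, limma adjusted p = 0.0259), which is 1.75-fold lower. At 48 h the difference was -0.38 (95% interval -0.85 to 0.08, adjusted p = 0.237), and the change between the times was 0.42 with an interval of -0.23 to 1.08. Within pairs of the same replicate number the differences were -0.55, -0.86 and -1.01 at 24 h and -0.37, -0.29 and -0.49 at 48 h. The 24 h call was lost without Nnm 24 h replicate 3 (limma adjusted p = 0.0780), control 24 h replicate 1 (0.0813) or control 24 h replicate 3 (0.104), and also with no brightness filter (0.0625) or the 24 h groups alone (0.0933). Over both times STEAP3 fell by 0.60 (limma adjusted p = 0.0112) and passed in all 12 fits that left out 1 array. The second probe set, 1554830_a_at, read 6.84, 6.26 and 7.19 in controls and 6.16, 5.79 and 6.15 with Nnm at 24 h, a difference of -0.73 that did not pass over probe sets (limma adjusted p = 0.110) but did with the block (0.0215). Its 48 h difference of -0.57 did not pass over probe sets (limma adjusted p = 0.224) or with the block (0.0572).

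SLC39A14 codes for ZIP14, a zinc transporter that also takes up iron that is not bound to transferrin. Probe set 212110_at read 10.22, 10.34 and 10.49 in controls and 10.33, 10.11 and 10.29 with Nnm at 24 h, and the groups overlapped. At 48 h it read 10.24, 10.30 and 10.33 in controls and 9.92, 9.97 and 10.06 with Nnm, and all Nnm arrays were below all controls. The differences were -0.10 at 24 h (limma adjusted p = 0.498) and -0.31 at 48 h (SE 0.10, adjusted p = 0.0729). Blocked by replicate number, the 48 h fall passed over all arrays (adjusted p = 0.0300) but not with a block within each time (0.0639), and the pairs differed by -0.32, -0.33 and -0.27. Over both times SLC39A14 fell by 0.20 (limma adjusted p = 0.0491), and it passed in 1 of the 12 fits that left out 1 array (without control 24 h replicate 1), with adjusted p up to 0.114 in the others. On 1555434_a_at the 48 h values were 6.96, 6.88 and 7.43 in controls and 6.54, 6.22 and 7.05 with Nnm, a difference of -0.49 (adjusted p = 0.326 over probe sets, and 0.0104 with the block).

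ACO1 is the cytosolic aconitase, which becomes iron regulatory protein 1 when it loses its iron-sulphur cluster. Its probe set 207071_s_at read 8.86, 8.97 and 9.06 in controls and 9.13, 9.11 and 9.17 with Nnm at 24 h. The 48 h values were 9.00, 8.95 and 9.22 in controls and 9.18, 8.76 and 8.95 with Nnm. The Nnm arrays lay above the controls at 24 h and overlapped them at 48 h. The difference was 0.18 at 24 h (95% interval -0.10 to 0.45, limma adjusted p = 0.325) and -0.09 at 48 h (-0.36 to 0.19, adjusted p = 0.667). Protein activity, which the cluster sets, was not measured here.

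**Figure D3:**
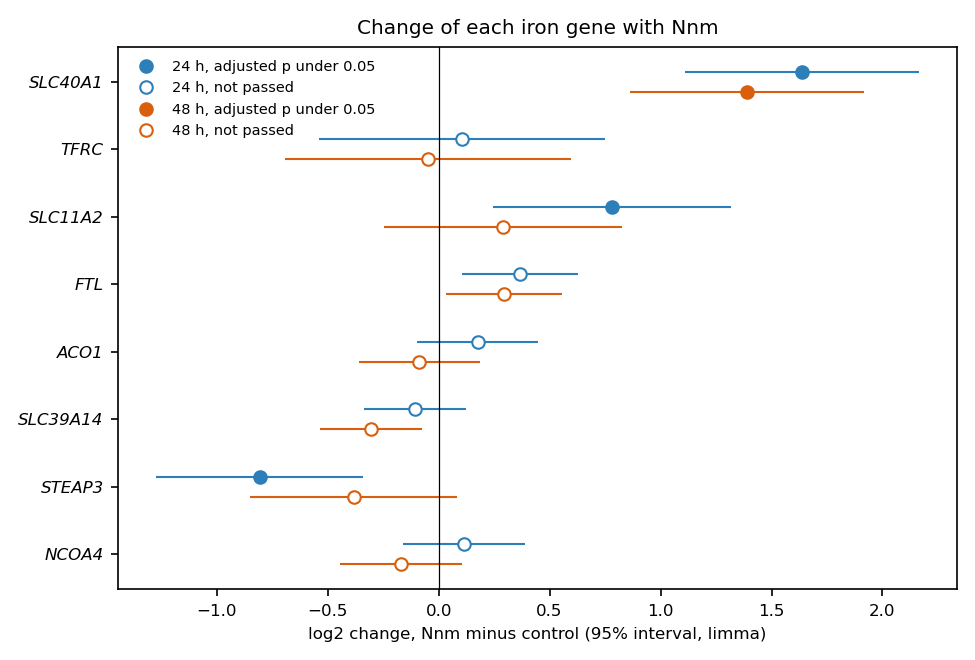
Log2 change, Nnm minus control, at 24 h and 48 h (x axis) for the 8 member genes (y axis); points are limma estimates over 12 arrays, filled where the adjusted p was under 0.05, and lines their 95% confidence intervals. SLC40A1 stands farthest to the right at both times (1.64 and 1.39), STEAP3 farthest to the left at 24 h (-0.81), and TFRC, ACO1 and NCOA4 span 0.

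The members differed in how the replicate pairs behaved. Nnm minus the control of the same number gave 1.24, 1.42 and 2.25 for SLC40A1 at 24 h and 1.54, 1.01 and 1.62 at 48 h (log2 differences, replicates 1, 2 and 3). FTL gave 0.48, 0.26 and 0.36, and then 0.47, 0.14 and 0.27. For SLC11A2 the differences were 1.28, 0.08 and 0.99, and then 0.74, -0.30 and 0.43. All 6 pairs of SLC40A1, FTL and STEAP3 kept 1 direction, and SLC11A2 and SLC39A14 did so in 5 of 6. NCOA4 was higher with Nnm in 3 pairs at 24 h and in 0 at 48 h, and ACO1 in 3 and 1. The share of all genes whose pairs kept 1 direction was not counted. TFRC, with 0.36, -0.09 and 0.05 and then 0.26, -0.26 and -0.15, had both directions at each time. Replicate 2 gave the smallest difference in FTL and SLC11A2 at both times and the arrays of that number also stood apart in ACTB and the first component; their part in the member values was not tested. Without both Nnm replicate 2 arrays, but with the control arrays of that number kept, the FTL rise at 24 h passed (limma adjusted p = 0.0127). That fit called 34.0% of all genes at 24 h, against 19.4% by the planned test.

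**Figure D4:**
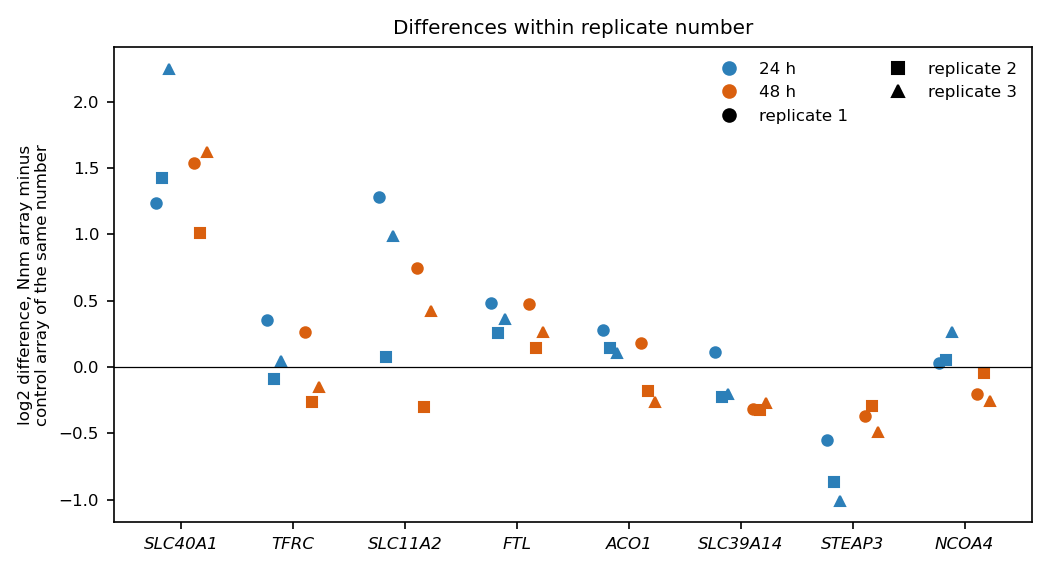
Nnm minus control of the same replicate number (y axis, log2) for each of the 8 member genes at 24 h and 48 h; each point is 1 pair of arrays, marked by replicate number. SLC40A1 pairs lie between 1.01 and 2.25, and the replicate 2 pairs of SLC11A2 (0.08 and -0.30) lie below those of replicates 1 and 3.

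Other genes of iron biology were read from 8 lists with 101 genes, of which 92 had a probe set and 72 were bright enough to test. At 24 h 7 of the 72 rose and 9 fell (limma, adjusted over all genes), and at 48 h 1 rose and 7 fell, which is near the 19.4% and 13.8% called among all genes. Their median change was 0.02 and -0.02. Blocked by replicate number, 25 and 19 changed, where 38.8% and 32.2% of all genes were called. These are also the shares to set beside the block counts of each list below. None changed differently between the times by limma.

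Genes of iron entry and reduction moved in both directions. Of 7 tested, 2 rose and 1 fell at 24 h and 1 rose at 48 h, with list medians of 0.37 and 0.24. With the block 3 rose and 1 fell at 24 h, and 3 rose and 0 fell at 48 h. CYBRD1, a ferric reductase of the plasma membrane, went from 10.38 ± 0.09 to 11.05 ± 0.27 at 24 h (SD, n = 3), a rise of 0.67 (limma adjusted p = 0.0106). STEAP2, a relative of STEAP3, rose by 0.97 at 24 h (limma adjusted p = 0.0214), and STEAP1, another relative, by 0.89 at 48 h (0.0338). TFR2, the second transferrin receptor, fell by 1.20, from 7.39 ± 0.42 to 6.19 ± 0.25, at 24 h (limma adjusted p = 0.0103). So within the STEAP family the 24 h calls were a fall of STEAP3 and a rise of STEAP2. In the list of iron chaperones, oxidases and systemic control, 1 of 8 rose at 24 h and 0 changed at 48 h, and with the block 1 rose and 1 fell at 24 h and 0 changed at 48 h. The gene that rose by the planned test was NEO1, neogenin, a partner of haemojuvelin, which went from 7.75 ± 0.22 to 8.54 ± 0.37 (limma adjusted p = 0.0169). Of 2 other transcripts with a known iron-responsive element, EPAS1 and PFN2, 0 passed at either time. With the block EPAS1, the hypoxia-inducible factor HIF-2α, fell by 0.88 at 48 h (adjusted p = 0.00607); it was named after its values were seen.

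Among 10 genes of haem synthesis, 2 rose and 1 fell at 24 h and 1 fell at 48 h, and with the block 2 rose and 5 fell at 24 h and 1 rose and 2 fell at 48 h. ALAS1, the first enzyme of the pathway, fell by 0.59 at 48 h (limma adjusted p = 0.0324). ALAD, the second, rose by 0.74 at 24 h (0.0136) and differed by -0.15 at 48 h (0.548), though this difference between the times did not pass (adjusted p = 0.696). CPOX rose by 0.58 and PPOX, the enzyme that follows it, fell by 0.74 at 24 h (limma adjusted p = 0.0451 and 0.0372). Of 10 genes of haem uptake, breakdown and export, 1 rose at 24 h and 1 fell at 48 h, and with the block 2 rose at 24 h and 1 fell at 48 h. BLVRB, a biliverdin reductase, rose by 1.25 at 24 h, from 8.90 ± 0.15 to 10.15 ± 0.63 (limma adjusted p = 0.0213). BACH1, a repressor that haem inactivates, fell by 0.46 at 48 h (0.0268).

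In mitochondrial iron handling and iron-sulphur cluster assembly, 0 of 18 genes rose and 3 fell at 24 h, and 0 rose and 4 fell at 48 h. With the block 1 rose and 3 fell at 24 h, and 0 rose and 5 fell at 48 h. The list medians were 0.02 and -0.09. BOLA3, a late assembly factor, went from 11.80 ± 0.15 to 11.10 ± 0.16 at 24 h and from 11.27 ± 0.15 to 10.50 ± 0.47 at 48 h (limma adjusted p = 0.0381 and 0.0344). HSPA9, the mitochondrial chaperone that serves cluster transfer, fell by 0.55 at 24 h (0.0125). CISD1 and FDX2, a cluster protein of the outer membrane and the ferredoxin of cluster synthesis, fell by 0.50 and 0.55 at 48 h (0.0302 and 0.0432). In the cytosolic assembly list 0 of 9 rose and 3 fell at 24 h and 1 fell at 48 h, with medians of -0.30 and -0.23; with the block 0 rose and 4 fell at 24 h, and 1 rose and 4 fell at 48 h. CIAPIN1, an electron donor of that pathway, went from 10.49 ± 0.17 to 9.60 ± 0.15 at 24 h and from 10.18 ± 0.14 to 9.42 ± 0.29 at 48 h (limma adjusted p = 0.00851 and 0.0156). NUBP1, a scaffold protein, fell by 0.74 at 24 h (0.0381). CIAO1, of the targeting complex, fell by 0.39 at 24 h (0.0191) on its brightest probe set, but 1 of its 3 bright probe sets had that direction and the mean over them was 0.03.

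Among 9 genes of lipid peroxidation and ferroptosis, 1 rose and 1 fell at 24 h and 1 fell at 48 h, the last of these being CISD1, which this list shares with the mitochondrial one. With the block 1 rose and 1 fell at 24 h, and 0 rose and 2 fell at 48 h. SLC7A11, the cystine importer, went from 6.88 ± 0.24 to 9.13 ± 1.27 at 24 h, a rise of 2.25 (SE 0.55, limma adjusted p = 0.0213) with a wide spread among the Nnm arrays. At 48 h it differed by 0.23 (0.812), and the change between the times did not pass (-2.02, adjusted p = 0.754). AIFM2, a reductase of coenzyme Q, fell by 1.03 at 24 h (limma adjusted p = 0.0113), with the same direction on 1 of its 2 bright probe sets and 0.15 on the other. Of the 22 calls of named genes in these lists, 1 passed in every fit that left out 1 array, that of CIAPIN1 at 24 h; TFR2, CYBRD1 and AIFM2 at 24 h passed in 11 of 12, and CPOX at 24 h in 3 of 12.

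**Figure D5:**
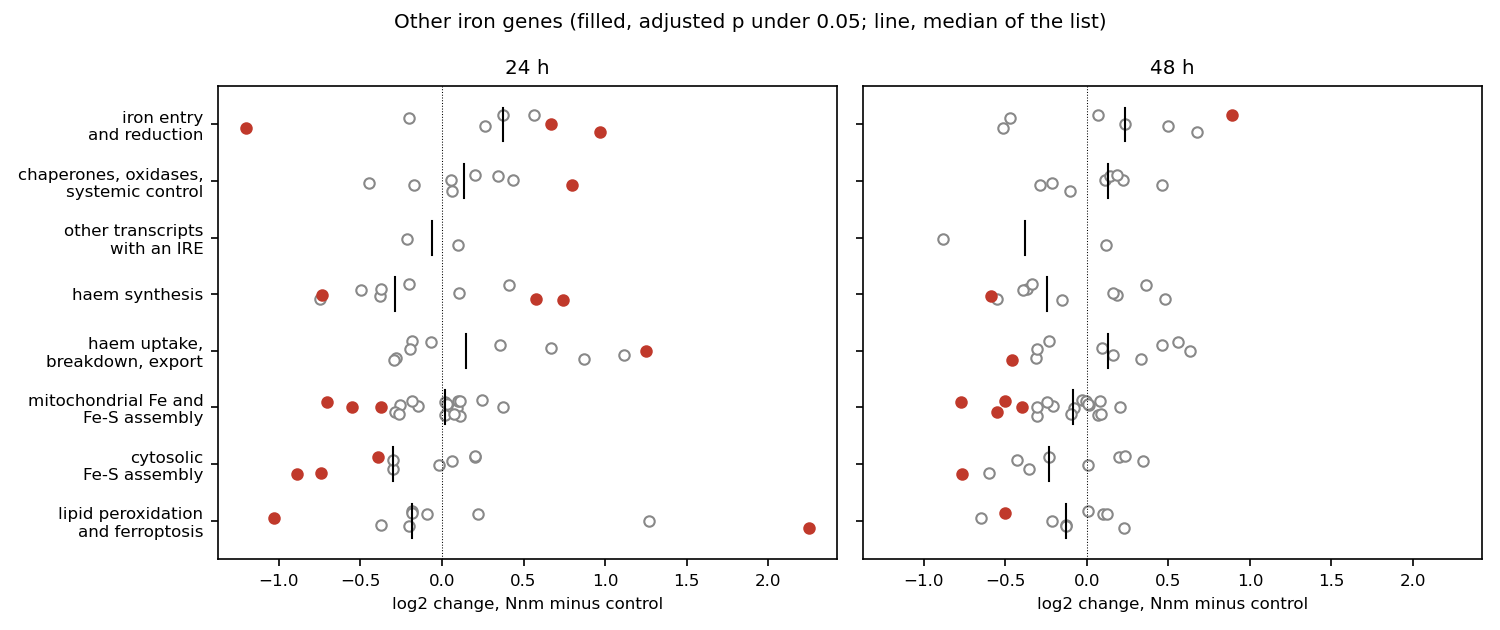
Log2 change, Nnm minus control (x axis), of the 72 other iron genes tested, by list (y axis), at 24 h (left) and 48 h (right); each point is a gene in a list, filled where the adjusted p was under 0.05, and the upright line is the median of the list. The point farthest right at 24 h is SLC7A11 (2.25) and the one farthest left TFR2 (-1.20), and the filled points of both assembly lists lie left of 0 at both times.

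Over the 12 arrays, the genes tested whose mean-centred values lay closest to those of SLC40A1 were TMEM267, ID3, LINC00205, KIZ and PCMTD1. Their root mean square differences from SLC40A1 were 0.19, 0.23, 0.23, 0.24 and 0.26 log2 units. TMEM267 codes for a membrane protein, ID3 for an inhibitor of DNA-binding transcription factors, LINC00205 for a non-coding RNA and KIZ for a centrosome protein. TMEM267 went from 9.31 to 10.76 at 24 h and from 9.44 to 10.98 at 48 h (group means, log2), and ID3 from 5.92 to 7.58 and from 6.40 to 7.80. They were chosen for this likeness, so their changes are a description. Without Nnm 48 h replicate 2, 2 of the 5 remained among the nearest, and without control 24 h replicate 3, 3 did.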

How the data were processed

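Biotinylated cRNA from the RNA of 12 HK-2 cultures was read on Affymetrix arrays, per the labels' protocols. The authors deposited log2 values from GCRMA, which corrects background by probe sequence before it normalises and summarises, per the submitters' processing notes. Its version and the arrays it was run on together are not given in the sources used here. That the scale is log2 was read from the span of the values. Names came from the platform annotation, where 41091 of 54675 probe sets had 1 gene symbol, 1801 had several, 11721 were not listed and 62 were controls.

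A probe set was kept if it exceeded 4 (log2) on 3 or more arrays, which left 19832 with 1 gene and 10907 genes, each read from its kept probe set with the highest mean. All 12 arrays entered 1 fit in limma 3.58.1 (R 4.3.3, lmFit then eBayes), with Benjamini-Hochberg adjustment over all genes and a threshold of 0.05. A p over probe sets is adjusted over all 19832. The code was tested on simulated data. No pair of arrays shared more than 0.00914% of its values exactly. Plots were drawn in Python.

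The members and the lists of other iron genes were chosen with earlier results of these data known. Named were all members, up to 4 genes past the threshold with the smallest p in each other list, and the 5 genes nearest to SLC40A1. Others named are marked.

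Residuals of arrays with the same replicate number correlated at 0.318 to 0.696, and of different numbers at -0.587 to 0.119, so the numbers pair the arrays. No block was planned in the test. The value with the block over all arrays stands beside member calls and list counts that it changes. It is not given for every single gene of the other lists whose call it changes. Alternatives were other filters and probe-set choices, quantile normalisation, median centring, array weights, trended and robust variances, both kinds of replicate block, each time fitted alone, and arrays left out.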

Additional observations from a re-analysis of the deposited data

How the results depend on the processing

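SLC40A1 kept its direction and its call at both times under all 24 alternatives. Of the members, 3 changed at 24 h, 1 at 48 h and 5 over both times by the planned test. With no filter, with probe sets not ending in _s_at or _x_at taken first, or with the groups of 1 time alone, 1 changed at 24 h. Of all genes 6.43%, 18.5% and 7.67% were called in these settings. With array weights or the replicate block over all arrays 3 changed at 48 h, where 31.8% and 32.2% of all genes were called. By the planned test 13.8% were. With the replicate block within each time or without both Nnm replicate 2 arrays 2 members changed at 48 h. Those fits called 23.04% and 28.94% of all genes at that time. With the mean of the probe sets or with probe sets not ending in _s_at or _x_at first, 3 changed over both times, where 36.8% and 36.1% of all genes were called. Leaving out 1 array gave 1 to 4 at 24 h, 1 to 2 at 48 h and 3 to 4 over both times. The shares of all genes called in these fits were 3.70% to 29.8%, 2.45% to 22.0% and 29.1% to 42.1%. No member passed in control cells between the times, or for a difference between the times, under any of these settings.

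Of the other iron genes 16 changed at 24 h and 8 at 48 h. The counts were 8 and 3 of 92 with no filter (6.43% and 4.45% of all genes were called), and of 72 they were 35 and 22 with array weights (44.6% and 31.8%), 25 and 19 with the replicate block over all arrays (38.8% and 32.2%), and 5 and 0 with the groups of 1 time alone (7.67% and 4.71%). At 48 h the replicate block within each time and leaving out both Nnm replicate 2 arrays each gave 16 of 72. Of all genes 23.04% and 28.94% were called at 48 h in these settings. Leaving out 1 array gave 1 to 24 at 24 h and 0 to 11 at 48 h, with the lowest count at 24 h without control 24 h replicate 3. In these fits 3.70% to 29.8% of all genes were called at 24 h and 2.45% to 22.0% at 48 h.

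The directions that turned belonged to probe-set choice or to values near 0. SLC11A2 was -0.090, -0.37 and -0.23 at 24 h, 48 h and over both times with probe sets not ending in _s_at or _x_at first, and -0.012 at 48 h with the mean of its probe sets. TFRC over both times was -0.0013 with that mean and -0.0043 with median centring, and NCOA4 was 0.011 with quantile normalisation. FTL in control cells was -0.0023 with the mean of probe sets and -0.0038 with quantile normalisation. ACO1 at 48 h was 0.014 without both Nnm replicate 2 arrays. CIAO1 at 24 h was 0.027 with the mean and 0.22 with probe sets not ending in _s_at or _x_at first, where AIFM2 was 0.15. Leaving out 1 array gave TFRC -0.13 to 0.29 at 24 h, -0.36 to 0.13 at 48 h, -0.13 to 0.12 over both and -0.47 to 0.080 between the times. The ranges were -0.20 to 0.014 for ACO1 at 48 h, -0.0091 to 0.10 for ACO1 and -0.093 to 0.011 for NCOA4 over both times, and -0.036 to 0.61 for SLC7A11 at 48 h. They were -0.17 to 0.038 for FTL between the times, and -0.013 to 0.056 for FTL and -0.12 to 0.013 for SLC39A14 in control cells. The causes were not tested. The 3 arrays of each group and values close to background in dim probe sets limit what could be seen.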
